A study of Mus musculus with 24 samples.

Results

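The 6 RNA-seq libraries described here come from 3T3-L1 cells labelled as overexpressing LSD1, 3 at day 7 of fat cell differentiation and 3 at day 0, out of 24 samples and 12 RNA-seq libraries in the study. They are all the libraries with the LSD1 label at either day, picked by label and not by a measured value, although this group was taken up with earlier results of these data known. 3T3-L1 is a mouse embryonic fibroblast line committed to the fat cell lineage, and the study profiles LSD1, the product of Kdm1a and an eraser of histone methylation, in fat cells. The other 6 RNA-seq libraries are control cells at the same days, and 6 ChIP-seq samples and their inputs make up the rest. Per the labels, the day 7 cells had been induced with insulin, dexamethasone, rosiglitazone and isobutylmethylxanthine in serum and then kept in medium with insulin. The day 0 cells were confluent and undifferentiated, sampled before induction. The control cells, which have no LSD1 label, went through the same protocol. The construct, its promoter and whether the labelled cells are 1 clone are not given in the sources used here. The titles call the 3 libraries of a group biological replicates. Whether they came from separate cultures is not stated, so part of the spread between libraries may be technical. The p-values rest on a spread estimated over all 12 RNA-seq libraries, control cells included, and not on the 6 labelled libraries alone.

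When confluent preadipocytes receive the hormone mix, glucocorticoid and cyclic AMP signalling switch on early factors of the C/EBP family. These raise PPARgamma (Pparg) and C/EBPalpha (Cebpa), which together drive the genes of lipid storage, insulin-responsive glucose uptake and secreted fat cell proteins. In the process the cells leave the cell cycle, round up and replace the fibroblast's collagen-rich matrix and stress fibres. LSD1 works in corepressor complexes with CoREST and HDACs, and removes methyl groups from lysine 4, and in some settings lysine 9, of histone H3.

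The markers matched the labels of both days. The 10 fat cell markers summed to 37096, 34018 and 32416 CPM (depth-scaled read counts, in edgeR's CPM unit) at day 7, against 549, 641 and 574 CPM at day 0, where most of the sum was the lipase gene Lpl. The 10 preadipocyte and fibroblast markers summed to 5151, 5194 and 5724 CPM at day 7, against 37146, 26014 and 25146 CPM at day 0. Neither sum overlapped between the days. Sums for 6 other cell types were small: macrophage markers lay between 6.82 and 7.19 CPM at day 7 and between 17.7 and 34.3 CPM at day 0, mostly Cd14, with Adgre1 at 0. Skeletal muscle markers lay between 33.6 and 44.1 CPM at day 7 and between 6.83 and 17.6 CPM at day 0, mostly Des, with Myod1, Myog, Myf5 and Ckm at 0. Those of bone and cartilage lay between 10.6 and 12.0 CPM at day 7 and between 0.429 and 2.33 CPM at day 0, led by Alpl at day 7 and Col2a1 at day 0, with Acan at 0. Endothelial, epithelial and neural markers did not exceed 5.30 CPM in any of the 6 libraries, with Cldn5, Tie1, Epcam, Cldn4, Sox10 and Rbfox3 at 0. These are bulk libraries, so more cells of a type and more RNA per cell cannot be told apart.

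Kdm1a went against the label at day 7 but not at day 0. It had 54.3, 55.4 and 54.4 CPM at day 7, against 89.4, 104 and 99.01 CPM at day 0, a log2 change of -0.83 (SE 0.10, adjusted p = 5.26e-06). Control cells had 66.1, 67.6 and 74.5 CPM at day 7, against 78.98, 86.3 and 84.1 CPM at day 0. At day 7 the 3 labelled libraries lay below the 3 control libraries, and at day 0 they lay above them by a smaller margin than the drop between the days. The counted transcript is the mouse gene, so a construct that lacks its untranslated parts or comes from another species would be counted in part or not at all. The libraries are therefore called LSD1-labelled throughout.

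Day 0 replicate 1 stood apart from the other 2 day 0 libraries. Its log2 CPM correlated with theirs at 0.955 and 0.957 across genes, while the other pair of day 0 libraries reached 0.993 and the day 7 pairs 0.988 to 0.991. In it, 2219 genes were more than 2-fold from the mean of the other 2 libraries, 1161 higher and 1058 lower, against 540 and 581 genes for the other day 0 libraries and 399 to 488 for those of day 7. Its deviations went with transcript length across genes (Spearman -0.39), as did those of day 0 replicate 2 in the other direction (0.47). Replicate 1 is in the mean that replicate 2 was set against, so these values are not independent. A correlation of this size did not set day 0 replicate 1 apart. In control cells day 0 replicate 2 had -0.44 and day 0 replicate 1 had 0.31. Day 7 libraries lay between -0.14 and 0.28 in labelled cells and between -0.13 and 0.22 in control cells. The day 7 over day 0 change itself had a Spearman correlation of -0.13 with transcript length across genes, and the part of length in the results was not tested. Aqp1, a water channel gene, showed the gap: 0.552, 0.878 and 1.14 CPM at day 7, against 483, 67.99 and 68.7 CPM at day 0. Groups of genes with a count that this library moved by over 1.5 times, or a median that changed sign, are given with and without it. Total counts were 27512273 to 30030309 per library at day 7 and 34098249 to 36301893 at day 0.

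Most tested genes differed between the days. Of 13356 genes tested with edgeR's quasi-likelihood test, 9325 (69.8%) passed: 4356 (32.6%) were higher at day 7 and 4969 (37.2%) were lower at a Benjamini-Hochberg adjusted p under 0.05. Tested against a 2-fold change, 4329 (32.4%) passed, 1722 (12.9%) as higher and 2607 (19.5%) as lower. Scaled by total counts in place of TMM, edgeR's scaling that allows for RNA composition, 3384 genes were higher and 6001 lower. The median log2 change over all genes was -0.07, and the range between the percentiles 5 and 95 was -4.17 to 2.54. The 3 libraries of day 7 lay wholly above the 3 of day 0 in 4402 genes (33.0%) and wholly below in 4821 (36.1%). Genes over 2-fold higher held 34.8, 34.3 and 35.1% of all CPM at day 7, against 7.57, 7.19 and 7.45% at day 0. Genes over 2-fold lower held 3.62, 3.85 and 3.89% at day 7, against 24.6, 23.4 and 22.4% at day 0. These 2 classes were picked by their change in the same libraries, so the direction of each shift in share follows from that choice. More genes fell than rose. Genes over 2-fold higher held a larger share at day 7 than genes over 2-fold lower held at day 0.

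Lists of genes by role are described by their counts against these background shares. Medians and changes of lists and genes are log2 fold changes, day 7 over day 0, unless a level in CPM is named. For scale, the control cells had 3168 genes (23.7%) higher and 3279 (24.6%) lower. The test of whether the day effect differed between labelled and control cells (the interaction) passed in the positive direction for 3186 genes (23.9%) and in the negative direction for 3747 (28.1%). Scaled by total counts alone, the interaction was positive for 1803 and negative for 5418 genes.

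**Figure D1:**
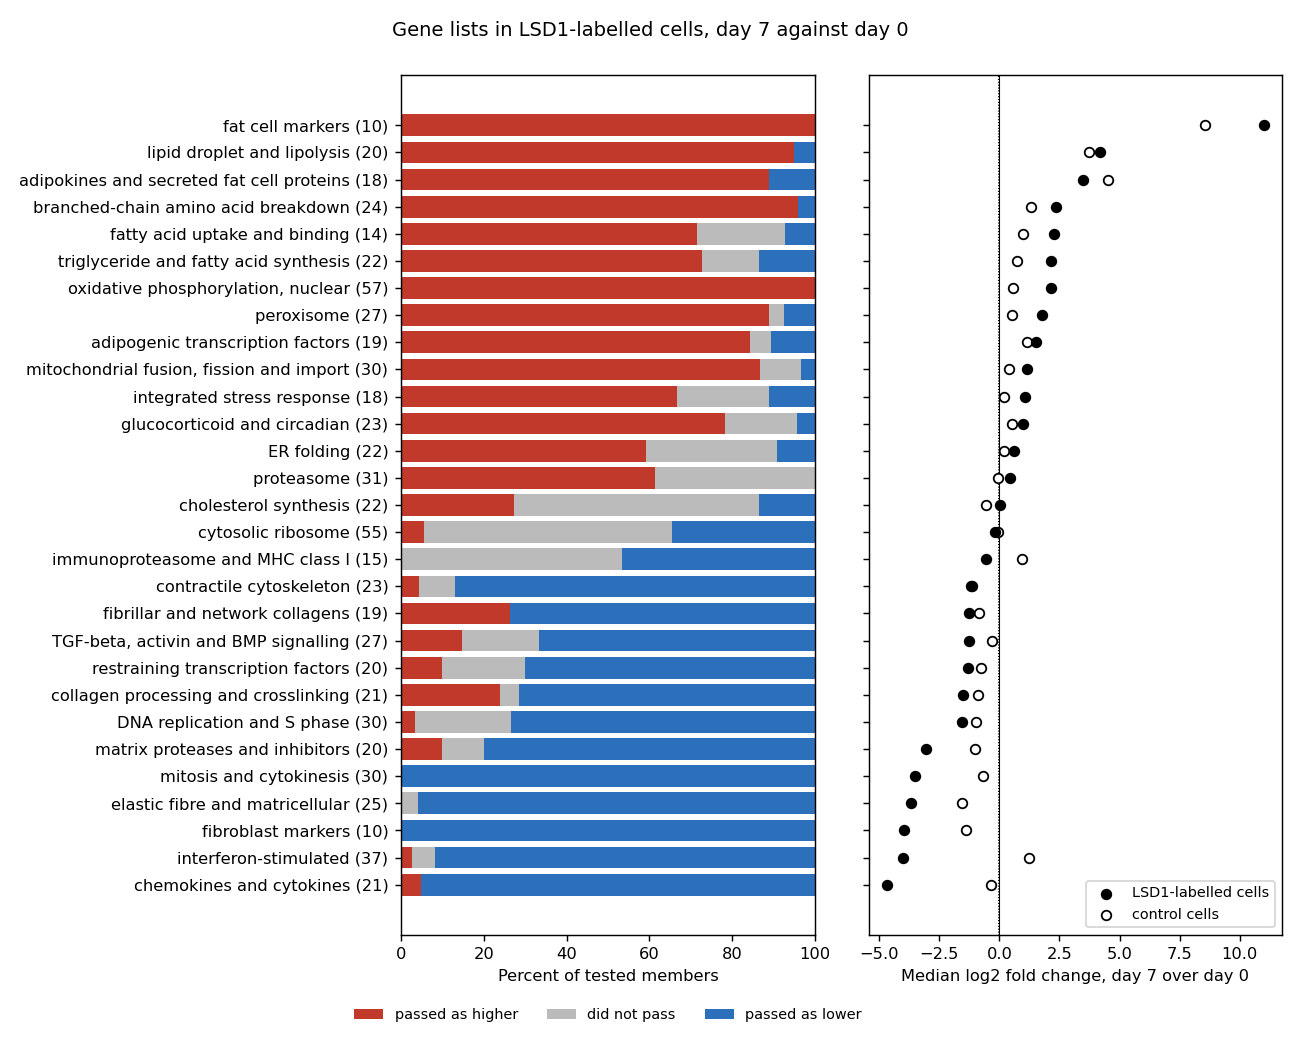
Left, percent of the tested members of each list that passed as higher at day 7 (red), did not pass (grey) or passed as lower (blue) in LSD1-labelled cells, with the number tested beside each list. Right, the list's median log2 fold change, day 7 over day 0, in LSD1-labelled cells (filled) and control cells (open); the dotted line is the median of all genes in the labelled cells, at -0.07. Mitosis, interferon and chemokine lists have medians of -3.52, -4.03 and -4.67 in the labelled cells, beside -0.68, 1.22 and -0.37 in the control cells.

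The factors that drive fat cell formation rose together: 16 of 19 passed as higher and 2 as lower, with a median log2 change of 1.54. Pparg, the master regulator, had 337, 338 and 350.1 CPM at day 7, against 24.6, 36.9 and 36.1 CPM at day 0. Its log2 change was 3.39 (SE 0.14, adjusted p = 4.26e-10), beside 1.78 in control cells, and the interaction was 1.61 (SE 0.19, adjusted p = 1.65e-05). Cebpa, its partner, had 191, 213 and 251 CPM at day 7, against 9.66, 6.05 and 6.64 CPM at day 0, a log2 change of 4.88 (SE 0.19, adjusted p = 1.69e-10). In both genes every day 7 library lay far above every day 0 library. Klf15, a zinc finger factor of late differentiation, had 45.8, 47.2 and 47.98 CPM at day 7, against 0, 0.107 and 0.110 CPM at day 0. Nr1h3, which encodes the oxysterol receptor LXRalpha, had 167, 177 and 199 CPM at day 7, against 2.21, 3.76 and 2.63 CPM at day 0. The 2 that fell were Ebf3, of the early B cell factor family, and Klf5, which acts early in differentiation. Ebf3 had 27.6, 21.5 and 22.8 CPM at day 7, against 58.7, 56.00 and 46.00 CPM at day 0. Klf5 had 3.75, 3.00 and 4.30 CPM at day 7, against 12.6, 7.59 and 6.17 CPM at day 0 (log2 change -1.25, SE 0.31, adjusted p = 0.00293), and in control cells its log2 change was 1.04.

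Factors that hold preadipocytes back fell more often than they rose, 14 of 20 lower and 2 higher, with a median of -1.32. Gata2, which keeps cells in the preadipocyte state, had 0.110, 0.103 and 0.104 CPM at day 7, against 14.4, 12.5 and 11.9 CPM at day 0, a log2 change of -6.86 (SE 0.27, adjusted p = 2.38e-10). Snai2, the factor Slug, had 7.94, 7.08 and 7.14 CPM at day 7, against 95.9, 132 and 109 CPM at day 0. Neither gene had a day 7 library near its day 0 level. The 2 that rose were Tsc22d3, the glucocorticoid-induced leucine zipper, with 288, 289 and 300.4 CPM at day 7, against 49.9, 63.1 and 67.2 CPM at day 0, and Wwtr1, the transcriptional coactivator TAZ, with 324, 317 and 293 CPM at day 7, against 113, 155 and 155 CPM at day 0.

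Lipid storage and lipolysis genes had the highest median change of the lists by role. Of 20 tested members, 19 were higher and 1 was lower, with a median log2 change of 4.20, beside 3.74 in control cells. Plin1, which coats the large droplet of mature fat cells, had 917, 976 and 1085 CPM at day 7, against 0.205, 0.143 and 0.0365 CPM at day 0, a log2 change of 12.89 (SE 0.40, adjusted p = 4.17e-11). Cidec, which helps droplets fuse, had 3685, 3965 and 4574 CPM at day 7, against 0.860, 0.179 and 0.365 CPM at day 0. G0s2, an inhibitor of adipose triglyceride lipase, had 631, 622 and 628 CPM at day 7, against 0, 0 and 0.0730 CPM at day 0, where only 2 reads were counted; the ratio was 25014 (exact 95% interval 6924 to 206559). Each of these genes had under 1 CPM in each day 0 library. Plin3, a droplet coat protein of many cell types, was the one that fell, with 147, 159 and 193 CPM at day 7, against 259, 228 and 234 CPM at day 0 (log2 change -0.53, SE 0.12, adjusted p = 0.00131).

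Several of the largest rises lay outside the storage machinery. Ghrh, which encodes growth hormone-releasing hormone, had 149, 142 and 151 CPM at day 7 and no read in the 3 day 0 libraries, which makes it at least 3916-fold higher when day 0 is set at 3 counts over the group. Fam107a was at least 1601-fold higher and Acer2, an alkaline ceramidase, at least 1475-fold. Adig, the small fat cell protein adipogenin, had 125, 121 and 137 CPM at day 7 with 1 read at day 0, a ratio of 10189 (exact 95% interval 1828 to 402514). Zbtb16, which encodes the factor PLZF, had 72.2, 86.6 and 69.6 CPM at day 7, again with 1 read at day 0, a ratio of 6079.7 (exact 95% interval 1091 to 240188). Mrap, which carries the melanocortin receptor for ACTH to the cell surface, had 520.4, 494 and 571 CPM at day 7, against 0.0409, 0.0716 and 0.0730 CPM at day 0. All of these genes had almost no reads at day 0.

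Uptake and synthesis of fatty acids and triglycerides rose as well. Of 14 uptake and binding genes 10 were higher and 1 lower. Of 22 synthesis genes 16 rose and 3 fell, and the median log2 change was 2.16, beside 0.75 in control cells. Cd36, the fatty acid translocase, had 3869, 3667 and 3095 CPM at day 7, against 0.450, 0.179 and 0.183 CPM at day 0, a log2 change of 13.68 (SE 0.61). Fabp4, the fatty acid binding protein of fat cells, had 16138, 14014 and 11106 CPM at day 7, against 6.84, 7.34 and 7.67 CPM at day 0. Agpat2, the acyltransferase that makes phosphatidic acid, had 852, 888 and 1010.2 CPM at day 7, against 17.7, 12.99 and 13.5 CPM at day 0. Its log2 change was 5.96 (SE 0.16, adjusted p = 2.16e-11), beside 3.18 in control cells, and the interaction was 2.78 (SE 0.19, adjusted p = 1.7e-07). In these 3 genes the days were far apart, and Cd36 had under 1 CPM at day 0. Against the trend, Elovl6, which lengthens palmitate, fell: it had 12.5, 13.7 and 10.4 CPM at day 7, against 94.03, 68.1 and 55.4 CPM at day 0 (log2 change -2.57, SE 0.19, adjusted p = 5.61e-08). Slc2a4, the insulin-responsive glucose transporter GLUT4, had 272, 290.0 and 339.7 CPM at day 7, against 0, 0.0716 and 0.0730 CPM at day 0.

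Of 18 adipokines and secreted fat cell proteins, 16 rose and 2 fell, with a median of 3.49, beside 4.53 in control cells. Adipoq, adiponectin, had 684, 619.9 and 736 CPM at day 7, against 0.205, 0.143 and 0.219 CPM at day 0, a log2 change of 11.78 (SE 0.49, adjusted p = 3.98e-10); the interaction was 3.05 (adjusted p = 0.00243). Cfd, adipsin, had 279, 257 and 342 CPM at day 7, against 0.368, 0.0358 and 0 CPM at day 0. Complement C3, the source of acylation stimulating protein, differed from these: it had 1195, 1415 and 1535 CPM at day 7, against 2005, 2417 and 2465 CPM at day 0 (log2 change -0.73, SE 0.13, adjusted p = 0.000179). In control cells the log2 change of C3 was 3.55, and the interaction was -4.29 (adjusted p = 8.31e-09).

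**Figure D2:**
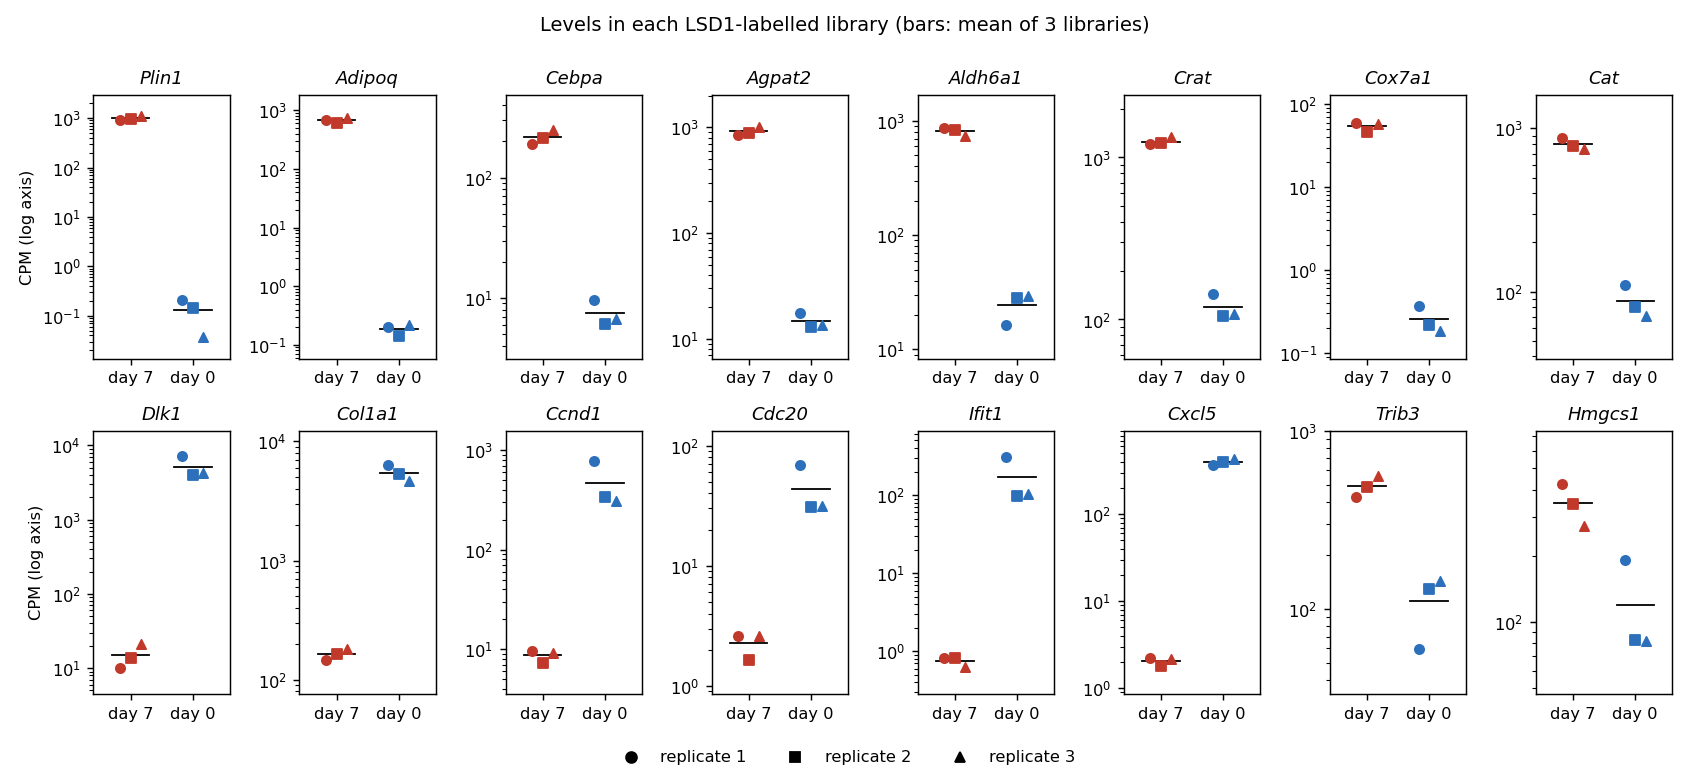
Levels of 16 genes in CPM on a log axis, 1 point per library (circle, replicate 1; square, 2; triangle, 3) with the group mean as a bar, in LSD1-labelled cells at day 7 (red) and day 0 (blue); each panel has its own axis. The upper 8 genes, Trib3 and Hmgcs1 are higher at day 7 and the others lower, with no overlap. Day 0 replicate 1 lies apart in several genes, among them Ifit1, Cdc20, Ccnd1, Dlk1, Trib3 and Hmgcs1.

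Breakdown of branched-chain amino acids, a carbon source for fat synthesis in fat cells, rose almost as a whole. Of 24 genes 23 passed as higher and 1 as lower, with a median log2 change of 2.38, beside 1.32 in control cells. The interaction passed in the positive direction for 19 of them. Bcat2, the mitochondrial transaminase, had 871, 879 and 1060.0 CPM at day 7, against 51.4, 51.8 and 52.8 CPM at day 0, a log2 change of 4.17 (SE 0.13, adjusted p = 4.17e-11). Bcat1, the cytosolic transaminase, moved the other way, with 5.30, 6.35 and 5.75 CPM at day 7, against 71.7, 175 and 189 CPM at day 0, a log2 change of -4.64 (SE 0.36, adjusted p = 9.93e-08). Aldh6a1, which oxidises the semialdehyde from valine, had 860.1, 832 and 743 CPM at day 7, against 16.3, 28.1 and 29.1 CPM at day 0. The 2 transaminase genes thus moved in opposite directions, each without overlap between the days.

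On the peroxisome list 24 of 27 genes rose and 2 fell; one that fell, Pmp22, encodes peripheral myelin protein and is not peroxisomal. The median was 1.78, beside 0.52 in control cells, and the interaction was positive for 22. Crat, carnitine acetyltransferase, had 1203, 1229 and 1330.4 CPM at day 7, against 144, 104 and 109 CPM at day 0. Its log2 change was 3.40 (SE 0.13, adjusted p = 1.65e-10), beside 0.52 in control cells, and the interaction was 2.88 (SE 0.17, adjusted p = 7.08e-08). Cat, catalase, had 879, 781 and 746 CPM at day 7, against 109.6, 80.7 and 70.5 CPM at day 0, a log2 change of 3.21 (SE 0.16). Acaa1b, the peroxisomal thiolase, rose by 4.34 and Pex11a, which drives peroxisome division, by 3.40 on the log2 scale.

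Each of the 57 nuclear genes of oxidative phosphorylation tested was higher, 48 of them over 2-fold, with a median of 2.15, beside 0.55 in control cells. The 3 that rose most were Cox7a1, a tissue-restricted subunit of cytochrome oxidase, Cycs, cytochrome c, and Ndufb8, a subunit of complex I. Cox7a1 had 60.1, 46.8 and 57.8 CPM at day 7, against 0.368, 0.215 and 0.183 CPM at day 0, a log2 change of 7.74 (SE 0.36, adjusted p = 9.54e-10), and the interaction was 4.02 (adjusted p = 0.000229). Cycs had 83.4, 57.1 and 51.8 CPM at day 7, against 2.05, 1.43 and 1.72 CPM at day 0. Ndufb8 had 318, 279.6 and 358 CPM at day 7, against 43.1, 27.7 and 42.3 CPM at day 0. In the 3 genes the days did not overlap. Genes of mitochondrial fusion, fission and protein import rose with them, 26 of 30 higher and 1 lower, at a smaller median of 1.13. On the log2 scale the chaperonin gene Hspd1 changed by 2.38 and the translocase gene Timm17a by 2.22. Chchd3, a protein of the cristae junctions, had 494, 442 and 439 CPM at day 7, against 108, 97.1 and 108 CPM at day 0.

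Of the genes of brown and beige fat cells, 28 were in the files and 17 had enough reads to be tested; 14 rose and 3 fell. Those that define the state were not among the 17: Ucp1, the uncoupling protein, had 1 read over the 3 day 7 libraries and 2 over day 0, Prdm16 had none at either day, and Cidea had 12 reads over day 7 and 2 over day 0. Cox8b, a muscle and brown fat subunit of cytochrome oxidase, had 10.2, 8.21 and 9.47 CPM at day 7 and no read at day 0, at least 247-fold higher. Kcnk3, a potassium channel of brown fat, had 246, 274 and 332 CPM at day 7, against 11.01, 5.65 and 4.89 CPM at day 0. Neither gene overlapped between the days. Ppargc1a, the coactivator PGC-1alpha, had 78.00, 75.5 and 57.97 CPM at day 7, against 21.00, 50.9 and 45.4 CPM at day 0, a log2 change of 0.85 (SE 0.25, adjusted p = 0.00872). Scaled by total counts alone, its change was 0.59 and did not pass (adjusted p = 0.0661). Without day 0 replicate 1, the lowest of its group, the change of Ppargc1a was 0.55 (adjusted p = 0.000676).

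Antioxidant genes were mixed, 17 of 29 higher and 8 lower. The metallothioneins, small metal-binding proteins, rose: Mt1 had 6159, 6139 and 7126 CPM at day 7, against 1116, 495 and 586 CPM at day 0, and Mt2 changed by 3.94 on the log2 scale. Nqo1, a target of the factor NRF2, fell, with 10.8, 9.71 and 6.57 CPM at day 7, against 64.9, 26.6 and 29.1 CPM at day 0 (log2 change -2.16, SE 0.32, adjusted p = 5.05e-05). In retinoid and steroid metabolism 8 of 15 genes rose and 4 fell. Rarres2, the adipokine chemerin, had 289.9, 279.8 and 286 CPM at day 7, against 3.23, 4.26 and 3.98 CPM at day 0, while the receptor gene Rarg fell by 2.00 on the log2 scale.

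Glucocorticoid targets and clock genes were higher in 18 of 23 cases and lower in 1, with a median of 1.00. Fkbp5, a co-chaperone of the glucocorticoid receptor and one of its classic targets, had 1036, 1066 and 1019.6 CPM at day 7, against 29.5, 36.9 and 39.3 CPM at day 0, a log2 change of 4.88 (SE 0.15, adjusted p = 3.14e-11). Hsd11b1, which regenerates active glucocorticoid in the cell, had 146, 142 and 148 CPM at day 7, against 3.27, 0.716 and 0.584 CPM at day 0. Per3 was the member that fell, by 0.44 on the log2 scale. In insulin and IGF signalling, 11 rose and 10 fell of 24, beside 32.6% higher and 37.2% lower over all genes tested. Foxo1, the forkhead factor held back by insulin, had 237, 234 and 216 CPM at day 7, against 31.7, 38.3 and 32.6 CPM at day 0, while the ligand Igf1 fell by 3.05 and the binding protein Igfbp6 by 4.49 on the log2 scale. Without day 0 replicate 1 the change of Igfbp6 was -3.85 (adjusted p = 3.97e-13). Igfbp4 had a log2 change of 2.82, beside -0.42 in control cells, with an interaction of 3.24 (adjusted p = 2.02e-05).

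Stress genes of the ATF4 pathway, the integrated stress response, rose in 12 of 18 cases and fell in 2, with a median of 1.06, beside 0.17 in control cells. Trib3, a pseudokinase that binds AKT and ATF4, had 425, 486 and 560.1 CPM at day 7, against 59.6, 129.7 and 144 CPM at day 0, a log2 change of 2.14 (SE 0.26, adjusted p = 8.58e-06). Its change in control cells was -0.38, and the interaction was 2.53 (adjusted p = 9.09e-05). Ddit3, the factor CHOP, had 353, 312 and 314 CPM at day 7, against 77.8, 131 and 143 CPM at day 0. Both genes were lowest at day 0 in replicate 1. The amino acid transporters Slc7a11 and Slc7a3 were those that fell, by 2.07 and 4.33 on the log2 scale. Of the ER folding genes 13 of 22 rose and 2 fell; Ero1a, the oxidase that drives disulphide formation, had 1808, 1945 and 1661 CPM at day 7, against 31.97, 208 and 209 CPM at day 0, and Dnajb9, a co-chaperone, had 199, 175 and 170.1 CPM at day 7, against 10.8, 18.1 and 18.4 CPM at day 0. Proteasome subunits moved less: 19 of 31 passed, each as higher, with a median of 0.45, led by Psma1 with 562, 519 and 525 CPM at day 7, against 129, 79.8 and 95.4 CPM at day 0.

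Cholesterol synthesis gave no common direction with all 3 day 0 libraries: 6 of 22 genes were higher, 3 lower and 13 did not pass, and their median log2 change was 0.04. Day 0 replicate 1 decided this. Hmgcs1, the synthase at the entry to the pathway, had 426, 345 and 275 CPM at day 7, against 192, 83.1 and 81.9 CPM at day 0, a log2 change of 1.55 (SE 0.28, adjusted p = 0.000244). Lss, which closes the sterol rings, had 129, 144 and 139 CPM at day 7, against 69.1, 32.7 and 31.03 CPM at day 0. In both genes day 0 replicate 1 was more than 2-fold above each of the other day 0 libraries. Without it 15 genes were higher, 3 lower, and the median was 1.01. Cytosolic ribosomal protein genes were lower in 19 and higher in 3 of 55; without that library they were lower in 15 and higher in 17. These genes have many near-identical pseudogenes, and how reads with several matches were counted is not given in the sources used here, so their values are uncertain.

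**Figure D3:**
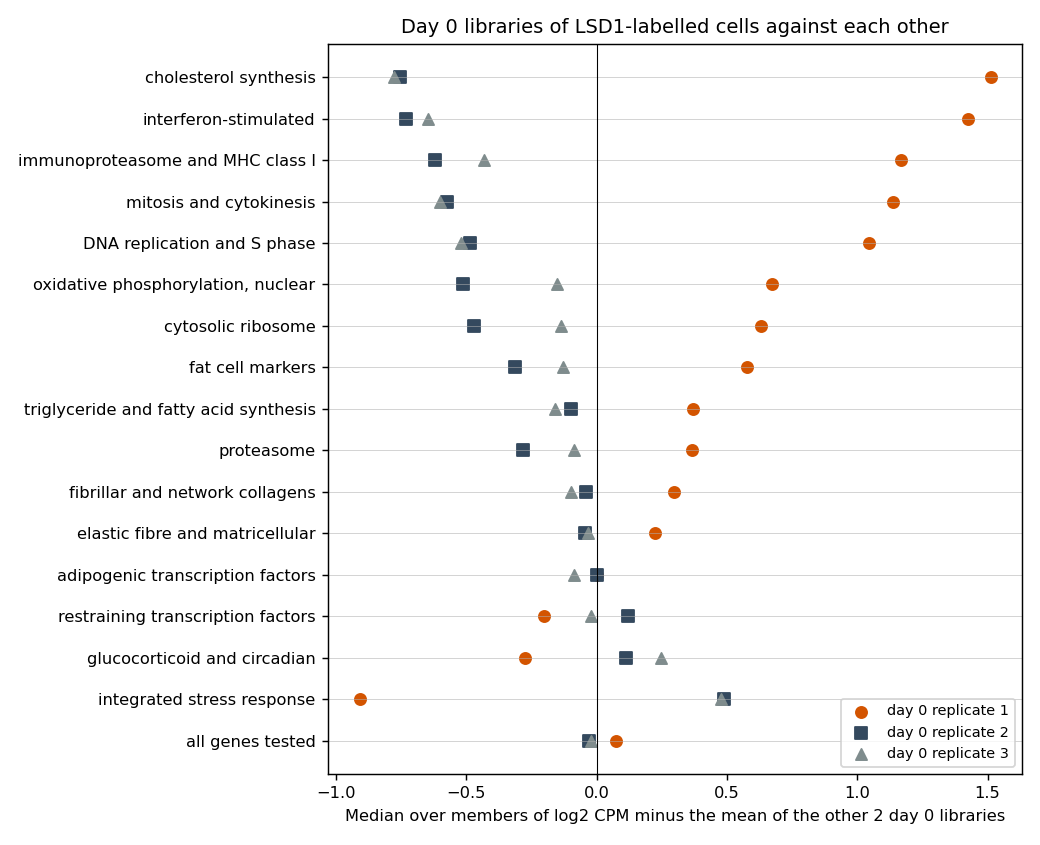
For each list, the median over its members of log2 CPM in 1 day 0 library of LSD1-labelled cells minus the mean of the other 2 day 0 libraries, with 1 marker for each of the 3 libraries. Replicate 1 lies at 1.51 for cholesterol synthesis, 1.42 for the interferon list and 1.14 for mitosis. For the same lists, replicates 2 and 3 lie at -0.75 and -0.78, -0.73 and -0.65, and -0.58 and -0.60. Replicate 1 is in the mean that replicates 2 and 3 are set against, so their values largely mirror its own.

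The fibroblast matrix fell. Of 19 collagen genes 14 were lower and 5 higher, and of 21 genes that process and crosslink collagen 15 were lower and 5 higher. Of 25 elastic fibre and matricellular genes 24 fell and 1 missed the threshold. Their median log2 change was -3.70, or -3.27 when genes with no read at a day are set at a floor of 3 counts there. Col1a1, the main collagen of bone, skin and fibroblasts, had 147, 165 and 179.6 CPM at day 7, against 6361, 5307 and 4678 CPM at day 0, a log2 change of -5.05 (SE 0.15, adjusted p = 3.14e-11); the interaction was -3.11 (adjusted p = 6.61e-08). P4ha3, a collagen prolyl hydroxylase subunit, had no read at day 7 and 44.5, 17.3 and 12.5 CPM at day 0, at least 454-fold lower. Tnc, the matricellular protein tenascin-C, had 0.165, 0.465 and 0.259 CPM at day 7, against 139.8, 394 and 369 CPM at day 0. Day 0 replicate 1 was the lowest of its group for Tnc and the highest for P4ha3.

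Some matrix genes rose against this trend. Col15a1, a collagen at the border of the basement membrane, had 42.5, 51.7 and 51.1 CPM at day 7, against 0.0819, 1.15 and 1.02 CPM at day 0, a log2 change of 5.97 (SE 0.45, adjusted p = 8.74e-08). Col6a3, whose end fragment is endotrophin, had 2043, 2430.4 and 2224 CPM at day 7, against 602, 852 and 791 CPM at day 0. Plod1, a lysyl hydroxylase, had 651, 727 and 889 CPM at day 7, against 159, 106 and 112 CPM at day 0. In these 3 genes the days did not overlap. Itga7, a laminin-binding integrin, had 79.8, 85.9 and 102 CPM at day 7, against 1.76, 1.11 and 0.986 CPM at day 0, a log2 change of 6.12 (SE 0.23, adjusted p = 1.34e-10) with an interaction of 4.24 (adjusted p = 2.93e-07). Among laminins, integrins and other basement membrane genes 7 of 22 rose and 12 fell, which was the most even split among the matrix lists.

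Matrix proteases and their inhibitors fell in 16 of 20 cases and rose in 2, with a median of -3.07. Mmp9, gelatinase B, had 0, 0.103 and 0.104 CPM at day 7, against 46.7, 55.2 and 53.3 CPM at day 0. Timp3, a protease inhibitor held in the matrix, had 0.717, 0.207 and 0.207 CPM at day 7, against 10.4, 151 and 129 CPM at day 0; in day 0 replicate 1 it was more than 10 times lower than in the other day 0 libraries. Mmp11, stromelysin 3, rose, with 487, 542 and 565 CPM at day 7, against 103, 112 and 123 CPM at day 0, beside a log2 change of 0.08 in control cells and an interaction of 2.15 (adjusted p = 1.39e-07). The contractile cytoskeleton fell in 20 of 23 genes, with 1 higher and a median of -1.13, close to -1.20 in control cells. Acta2, smooth muscle actin, had 9.71, 11.98 and 15.7 CPM at day 7, against 1183, 583 and 622 CPM at day 0.

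Signals that fibroblasts send and receive fell more often than they rose. In TGF-beta, activin and BMP signalling 18 of 27 tested genes were lower and 4 higher, and the interaction was negative for 17. Grem1, a secreted BMP inhibitor, had 3.25, 2.12 and 2.07 CPM at day 7, against 183, 326 and 309 CPM at day 0, a log2 change of -6.78 (SE 0.39, adjusted p = 6.1e-09), beside 0.05 in control cells. The receptor gene Tgfbr2 rose, with 332, 343 and 369 CPM at day 7, against 147, 142 and 138 CPM at day 0, beside a change of -0.49 in control cells. In neither gene did the days overlap. In Wnt signalling 12 of 19 genes were lower and 3 higher. Sfrp2, a secreted Wnt modulator, had 0.165, 0 and 0.104 CPM at day 7, against 41.9, 135 and 124 CPM at day 0, a log2 change of -10.07 (SE 0.61, adjusted p = 1.08e-08). The receptor gene Fzd4 rose, with 38.7, 47.4 and 45.3 CPM at day 7, against 1.23, 4.47 and 5.22 CPM at day 0. Of these 4 genes the receptors rose and the secreted modulators fell.

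Of 27 angiogenic and growth factors 17 fell and 5 rose, and the interaction was negative for 17. Ptn, the heparin-binding factor pleiotrophin, had 1.54, 1.65 and 1.04 CPM at day 7, against 1553, 1781 and 2051 CPM at day 0. Its log2 change was -10.31 (SE 0.22, adjusted p = 6.22e-12), beside -3.22 in control cells, and the interaction was -7.09 (SE 0.24, adjusted p = 1.21e-09). Fgf7, keratinocyte growth factor, had 5.74, 4.13 and 4.04 CPM at day 7, against 153, 202 and 171 CPM at day 0. Both fell to a few CPM at day 7 in every library. Vegfa, the main factor of vessel growth, rose, with 545, 562 and 476 CPM at day 7, against 82.6, 291 and 264 CPM at day 0 (log2 change 1.31). Dlk1, the preadipocyte surface protein that restrains differentiation, had 9.98, 13.7 and 20.8 CPM at day 7, against 7080.2, 3979 and 4182 CPM at day 0, a log2 change of -8.42 (SE 0.34, adjusted p = 3.25e-10). Replicate 1 was the highest day 0 library of Dlk1. S100a4, a calcium-binding protein of motile fibroblasts, had 37.6, 30.6 and 30.7 CPM at day 7, against 1333, 372 and 408 CPM at day 0; its change in control cells was 0.44, and the interaction was -4.86 (adjusted p = 1.54e-05). Of 19 AP-1 and immediate early genes 11 fell and 5 rose; Junb had 30.1, 29.4 and 31.5 CPM at day 7, against 156, 168 and 158 CPM at day 0, beside a change of -0.05 in control cells.

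Genes of cell division fell in every case for mitosis and in most for DNA replication. All 30 mitosis and cytokinesis genes were lower, 27 of them over 2-fold, with a median log2 change of -3.52. In control cells 14 of the 30 were lower and the median was -0.68; the interaction was negative for 26. Of 30 DNA replication genes 22 were lower and 1 higher. Promoters of 3 mitosis genes are shown for the cell cycle element CHR, which was common among them. The CHR was searched as TTTGAA or its reverse complement TTCAAA from 250 bases before to 50 after the RefSeq start. It was in 18 of 24 mitosis promoters (75.0%), in 4 of 24 DNA replication promoters (16.7%) and in 1175 of all 10090 promoters matched (11.6%). CCAAT boxes, searched as CCAAT or ATTGG, were in 83.3% of the mitosis promoters and 39.4% of all. The 3 promoters that follow (RefSeq, GRCm38.p6, gene strand, 180 bases before to 30 after the start) carry the CHR in capitals. They are Kif23 (chr9:61946770-61946979, minus strand), Cdc20 (chr4:118437314-118437523, minus strand) and Cdk1 (chr10:69352883-69353092, minus strand).
Kif23: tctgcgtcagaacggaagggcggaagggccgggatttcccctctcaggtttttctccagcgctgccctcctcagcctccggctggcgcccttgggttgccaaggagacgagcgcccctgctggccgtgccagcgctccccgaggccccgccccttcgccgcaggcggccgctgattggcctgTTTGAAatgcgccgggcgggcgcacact
Cdc20: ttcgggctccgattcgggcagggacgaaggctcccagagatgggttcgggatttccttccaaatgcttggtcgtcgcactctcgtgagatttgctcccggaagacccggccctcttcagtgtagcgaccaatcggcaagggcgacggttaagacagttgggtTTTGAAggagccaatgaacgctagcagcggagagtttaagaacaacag
Cdk1: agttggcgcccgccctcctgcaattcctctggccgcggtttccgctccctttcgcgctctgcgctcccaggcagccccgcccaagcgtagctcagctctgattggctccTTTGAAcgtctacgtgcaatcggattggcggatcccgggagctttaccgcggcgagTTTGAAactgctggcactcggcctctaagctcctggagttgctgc
The element was centred 5 bases after the start in Kif23, 15 before it in Cdc20, and 68 and 12 before it in Cdk1. A match is a description of the letters and not a bound site.

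Kif23, a kinesin of the dividing midzone, had 0.331, 0.155 and 0.207 CPM at day 7, against 54.8, 19.9 and 20.01 CPM at day 0, a log2 change of -7.07 (SE 0.50, adjusted p = 5.04e-08), beside -1.65 in control cells; without day 0 replicate 1 the change was -6.41 (adjusted p = 8.36e-17). Cdc20, which activates the anaphase-promoting complex, had 2.59, 1.65 and 2.59 CPM at day 7, against 68.9, 30.7 and 31.6 CPM at day 0, a log2 change of -4.26 (SE 0.32, adjusted p = 9.25e-08). Cdk1, the kinase of mitotic entry, had 14.6, 12.03 and 13.2 CPM at day 7, against 67.01, 24.3 and 26.98 CPM at day 0, a smaller log2 change of -1.57 (SE 0.31, adjusted p = 0.000542). In the 3 genes no day 7 library reached any day 0 library, and day 0 replicate 1 was the highest. Ccnb2, a mitotic cyclin, had 0.221, 0.258 and 0.155 CPM at day 7, against 31.8, 7.34 and 7.37 CPM at day 0, beside a change of -0.11 in control cells, with an interaction of -6.05 (adjusted p = 6.43e-05). Without day 0 replicate 1 all 30 mitosis genes were still lower, with a median of -2.92, and 22 replication genes passed as lower against 4 as higher; their median was -0.89 in place of -1.54.

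Of 21 cyclins D, cyclin-dependent kinases and their inhibitors 8 were higher and 8 lower, near the 32.6% and 37.2% of all genes tested. Ccnd1, the cyclin that answers growth factors, fell: it had 9.54, 7.18 and 9.21 CPM at day 7, against 775, 336 and 307 CPM at day 0 (log2 change -5.77, SE 0.34, adjusted p = 7.56e-09). Without day 0 replicate 1, the highest of its group, the change of Ccnd1 was -5.22 (adjusted p = 2.7e-19). Cdkn2c, an inhibitor of CDK4 and CDK6, rose, with 116, 108 and 113 CPM at day 7, against 18.7, 20.2 and 18.4 CPM at day 0. Rb1, the retinoblastoma protein that CDKs inactivate, rose as well, with 141, 117 and 87.9 CPM at day 7, against 11.95, 17.2 and 13.5 CPM at day 0. Cdkn2a, which encodes INK4A and ARF, fell, with 105, 101 and 108 CPM at day 7, against 550.5, 459 and 461 CPM at day 0. None of the 4 genes overlapped between the days.

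Interferon-stimulated genes, switched on by viral signals through STAT and IRF factors, fell in LSD1-labelled cells, while most rose in control cells. Of 37 tested, 34 were lower, 31 of them over 2-fold, and 1 was higher, with a median log2 change of -4.03. In control cells 26 passed as higher and the others did not pass, with a median of 1.22, and the interaction was negative for 35. The interferon-stimulated response element (ISRE) was searched as GAAA, any 2 bases and GAAA again, or on the other strand TTTC, any 2 bases and TTTC, in the same window as the CHR. It was in 16 of 27 interferon promoters (59.3%), in 4 of 13 promoters of immunoproteasome and MHC class I genes (30.8%) and in 303 of all promoters (3.00%). The 3 promoters that follow, of genes with 1 to 3 matches, show the element in capitals (RefSeq, GRCm38.p6, gene strand, same window as above). They are Isg15 (chr4:156200789-156200998, minus strand), Ifit1 (chr19:34640709-34640918, plus strand) and Rsad2 (chr12:26456423-26456632, minus strand).
Isg15: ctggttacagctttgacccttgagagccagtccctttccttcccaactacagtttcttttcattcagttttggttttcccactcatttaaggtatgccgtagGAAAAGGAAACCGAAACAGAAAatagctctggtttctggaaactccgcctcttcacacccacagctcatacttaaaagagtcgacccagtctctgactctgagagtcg
Ifit1: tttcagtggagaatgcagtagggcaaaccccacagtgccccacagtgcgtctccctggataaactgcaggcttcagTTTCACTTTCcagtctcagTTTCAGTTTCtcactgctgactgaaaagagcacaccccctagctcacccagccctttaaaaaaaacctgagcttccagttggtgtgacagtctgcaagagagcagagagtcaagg
Rsad2: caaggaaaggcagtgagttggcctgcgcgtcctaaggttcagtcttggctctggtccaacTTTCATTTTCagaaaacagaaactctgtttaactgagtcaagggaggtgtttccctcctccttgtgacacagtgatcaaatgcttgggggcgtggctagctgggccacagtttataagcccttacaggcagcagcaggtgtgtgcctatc
In Isg15 the 3 matches overlap and were centred 73, 67 and 61 bases before the start, so the capitals run through them. In Ifit1 the pair was centred 99 and 80 bases before the start, and in Rsad2 the single match 115 before it.

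Isg15, the ubiquitin-like modifier, had 0.993, 0.671 and 1.24 CPM at day 7, against 96.6, 19.3 and 21.2 CPM at day 0, a log2 change of -5.55 (SE 0.64, adjusted p = 4.75e-06). Ifit1, which binds viral RNA caps, had 0.827, 0.826 and 0.621 CPM at day 7, against 305, 96.7 and 103 CPM at day 0. In control cells Ifit1 had 38.1, 34.3 and 45.2 CPM at day 7, against 11.5, 12.7 and 18.5 CPM at day 0, and the interaction was -9.25 (SE 0.65, adjusted p = 2.38e-07). The day effect on Ifit1 therefore ran in opposite directions, and at day 0 the 3 labelled libraries lay above the 3 control libraries. Rsad2, the antiviral enzyme viperin, had 0.221, 0.207 and 0.104 CPM at day 7, against 18.3, 7.12 and 7.70 CPM at day 0, with an interaction of -9.04 (adjusted p = 3.17e-07). Mx1, the dynamin-like antiviral GTPase, had no read at day 7 and 44.1, 13.3 and 13.9 CPM at day 0, at least 434-fold lower. Isg20, an exonuclease, was the member that rose, with 22.1 to 25.8 CPM at day 7, against 7.34 to 18.5 CPM at day 0 (log2 change 1.06, SE 0.28, adjusted p = 0.00399). Replicate 1 was the highest of the day 0 libraries for each of these 5 genes. Without it 34 genes of the list passed as lower against 1 as higher; their median was -3.46.

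Chemokines and cytokines fell in 20 of 21 tested members and rose in 1, with a median of -4.67, beside -0.37 in control cells. Cxcl5, which draws neutrophils, had 2.21, 1.81 and 2.17 CPM at day 7, against 364, 394 and 431 CPM at day 0, a log2 change of -7.58 (SE 0.22, adjusted p = 2.69e-11). In control cells Cxcl5 had 44.6, 57.8 and 37.2 CPM at day 7, against 10.4, 7.73 and 8.41 CPM at day 0, and the interaction was -9.98 (SE 0.27, adjusted p = 4.22e-10). The 3 day 0 libraries of the labelled cells were close to each other for Cxcl5, and replicate 1 did not stand out. Cxcl10, an interferon-induced chemokine, had 0.110, 0.103 and 0 CPM at day 7, against 53.5, 15.3 and 17.6 CPM at day 0. Genes of the immunoproteasome and MHC class I fell in 7 of 15 cases and the others did not pass; in the fit that left out day 0 replicate 1, 6 passed as lower against 6 as higher, and the median was -0.07 in place of -0.58. Tap1, a subunit of the transporter that supplies peptides for class I molecules, had 10.2, 12.9 and 15.6 CPM at day 7, against 91.4, 40.4 and 40.8 CPM at day 0. The class I genes themselves are near-identical in sequence, so their counts are uncertain.

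**Figure D4:**
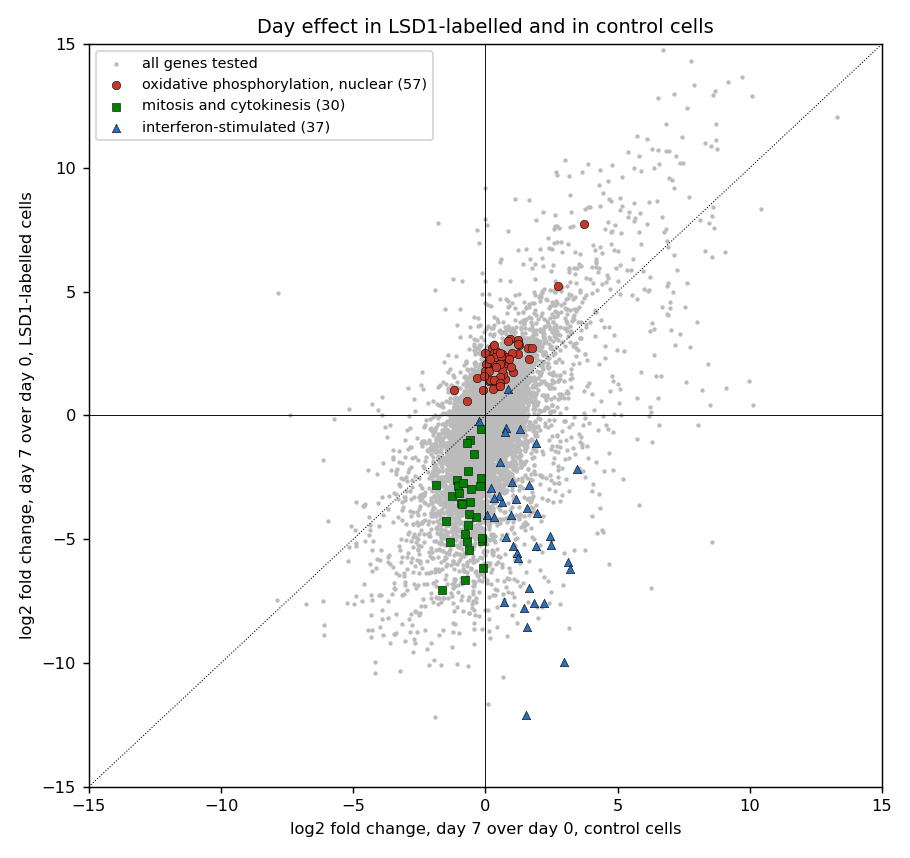
Log2 fold change, day 7 over day 0, of each tested gene in LSD1-labelled cells (vertical) against control cells (horizontal), with the oxidative phosphorylation, mitosis and interferon lists marked and the line of equal change dotted. Of the 37 interferon genes 34 passed as lower in the labelled cells and 26 as higher in the control cells; 50 of the 57 oxidative phosphorylation genes had a positive interaction.

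The labelled and control cells had 2016 genes called higher in both and 2141 called lower in both. Genes called higher in labelled and lower in control cells numbered 354, and 464 were called lower in labelled and higher in control cells. Ppp1r3d, a targeting subunit that brings phosphatase to glycogen, had 66.2, 67.6 and 72.7 CPM at day 7, against 10.2, 9.30 and 12.9 CPM at day 0 in labelled cells, and its change in control cells was -0.61. Atf5, a factor of the stress response, had 955, 1040.4 and 1185 CPM at day 7, against 476, 504 and 523 CPM at day 0 in labelled cells. In control cells Atf5 had 179.6, 208 and 181 CPM at day 7, against 494, 527 and 509.8 CPM at day 0, so the day 0 levels were close and the day 7 levels lay on either side. Sema5a, a semaphorin, had 14.4, 11.7 and 9.73 CPM at day 7, against 4.13, 2.79 and 3.76 CPM at day 0 in labelled cells, with an interaction of 4.13. Il1rn, the interleukin-1 receptor antagonist, had 0.221, 0.310 and 0.466 CPM at day 7, against 26.7, 3.72 and 4.64 CPM at day 0 in labelled cells. Control cells had 83.1, 77.6 and 71.4 CPM of Il1rn at day 7, against 0.0785, 0.322 and 0.198 CPM at day 0.

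Of 22 genes tested on a list of LSD1 and corepressor complexes, which also holds Kdm1b, Zeb1 and Nrf1, 3 were higher, 6 lower and 13 did not pass, against background shares of 32.6% higher and 37.2% lower. Without day 0 replicate 1 the list had 4 higher and 10 lower genes. On the log2 scale Hdac1, a deacetylase partner, fell by 1.01, and Gse1 and Zmym3, subunits of CoREST-type complexes, fell by 1.13 each. Mta3, a subunit of the NuRD complex, rose by 1.04 on the same scale. Of 40 histone and DNA modifiers 10 rose and 12 fell. Hdac9, a class IIa deacetylase, rose by 5.01 and Kdm4b, a demethylase of lysine 9, by 1.75, while the maintenance methyltransferase Dnmt1 fell by 2.40 and the chromatin protein Hmga2 by 2.62, again on the log2 scale. Nrf1, the respiratory gene factor also studied by ChIP-seq in the series, had 32.2, 34.1 and 35.6 CPM at day 7, against 32.01, 46.8 and 47.5 CPM at day 0, a log2 change of -0.31 (SE 0.14, adjusted p = 0.0633) that did not pass. Without day 0 replicate 1, the lowest of its group for Nrf1, the change was -0.47 (adjusted p = 0.000231).

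Levels were also set per kilobase of transcript, which allows genes to be compared with each other. At day 7 the highest was Fabp4, with 23662, 20548 and 16284 CPM per kb, followed in the means by Mt1, Fth1, Mt2 and Aldoa. Fth1, the ferritin heavy chain that stores iron, had 7974, 7186 and 7266 CPM per kb at day 7, against 4497, 3595 and 4429 CPM per kb at day 0. At day 0 the highest in the means were Fth1, Lgals1, Eef1a1, Vim and Rpl41. Vim, the intermediate filament of fibroblasts, and Lgals1, galectin-1, are both typical of mesenchymal cells.

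LSD1 ChIP-seq peak lists of the labelled cells, 1 sample per day, were set beside these changes without a test. The day 7 list held 27221 peaks and the day 0 list 13997, so a gene is more likely to hold a peak in the day 7 list. Of 13061 genes with a RefSeq start, 79.9% had a day 7 peak within 1 kb and 70.3% a day 0 peak. Genes over 2-fold higher had a day 7 peak in 79.7% of cases (1347 of 1691), genes over 2-fold lower in 56.4% (1430 of 2534) and genes that did not pass in 82.9%. In the day 0 list the shares were 61.9, 51.6 and 74.2%. The share rose with the level of the gene, and so the classes were compared within 4 classes of mean CPM of equal size. The mean was taken over both days, so genes were not matched for level on the day of each peak list. How far the level on that day sets the shares was not tested. In the highest class the day 7 shares were 96.9, 85.1 and 97.5%, and in the lowest 36.7, 30.9 and 47.7%. In the day 0 list genes over 2-fold higher had the lowest share in all 4.

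**Figure D5:**
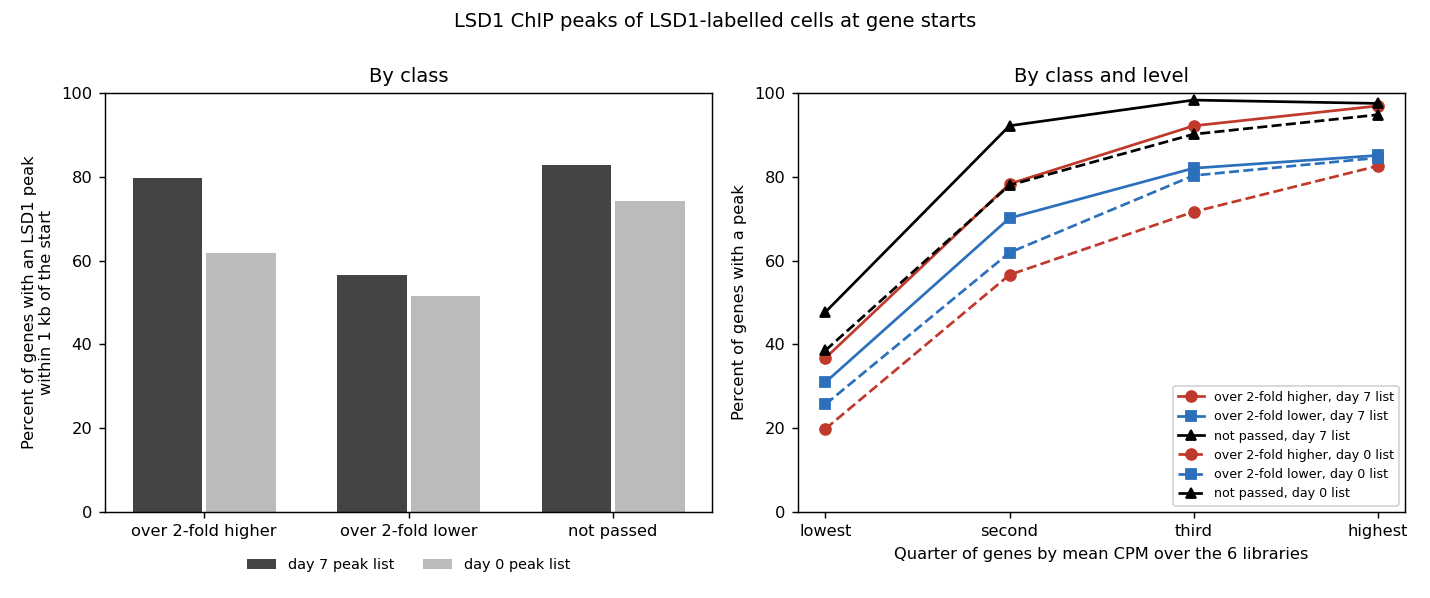
Left, percent of genes with an LSD1 peak within 1 kb of the start, for genes over 2-fold higher at day 7, over 2-fold lower and not passed, in the day 7 list (dark) and day 0 list (light) of the labelled cells. Right, the same within 4 equal classes of mean CPM over the 6 libraries, with solid lines for the day 7 list and dashed lines for the day 0 list; shares climb with level in both lists, and genes over 2-fold lower have the lowest day 7 share in each class.

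The interferon list went against the longer day 7 list: 16 of 37 genes (43.2%) had a day 7 peak and 30 of 37 (81.1%) a day 0 peak. In 15 genes, Ifit1, Isg15 and Mx1 among them, a peak was in the day 0 list only, and Gbp7 alone had one in the day 7 list only. Rsad2, Oas1a and Oas2 were among the 6 interferon genes with none in either. In some other lists too, fewer genes had a day 7 than a day 0 peak. The preadipocyte and fibroblast markers had 7 and 9 of 10, and chemokines and cytokines 7 and 9 of 21. Matrix proteases and their inhibitors had 11 and 14 of 20. Among the fat cell markers 9 of 10 had a day 7 peak and 3 of 10 a day 0 peak; Adipoq, Plin1, Cidec, Fabp4, Slc2a4 and Retn had one in the day 7 list only, and Cfd in neither. Mitosis genes had a day 7 peak in 29 of 30 cases and a day 0 peak in 19 of 30, with Kif23 in the day 7 list only and Ccnb2 in the day 0 list only. All 57 oxidative phosphorylation genes had a day 7 peak and 52 a day 0 peak. The input and cut-off behind each list are not given in the sources used here, so a peak in 1 list only does not measure a change in binding.

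Leaving out day 0 replicate 1 raised the calls to 4934 higher and 5354 lower genes. Of the genes called with all libraries, 9017 were called in the same direction without it and none in the opposite one. Medians of the storage, matrix, oxidative phosphorylation, mitosis and interferon lists had the same sign without it, and the lipid droplet median was 5.40 in place of 4.20. Besides the cytosolic ribosome list, near-even lists changed the sign of their median: insulin and IGF signalling (0.20 in place of -0.37), cyclins and CDKs (0.19 in place of -0.07) and lysosome and autophagy (0.06 in place of -0.05). Of the integrated stress genes 13 passed as higher without it and 3 as lower, and their median was 0.82. Of the proteasome subunits 26 passed, each as higher. ER folding genes then numbered 18 higher and 3 lower, AP-1 and immediate early genes 5 and 14, and glucocorticoid and clock genes 19 and 3. For fatty acid uptake genes the counts were 11 higher and 2 lower, and for elastic fibre and matricellular genes 1 and 24.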

How the data were processed

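The authors deposited raw read counts for each RNA-seq library, 1 value per RefSeq transcript. The submitters' processing notes name mm10, TopHat2 version 2, HOMER, edgeR and DESeq 1.8.3; role and order are not given in the sources used here. Each ChIP-seq peak list was deposited with a peak score, the authors' own, and per the submitters' processing notes came from Bowtie2 and MACS 1.41; the lowest score was 50, and scores were used here only to filter peaks at 100 in an alternative.

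Of 30521 transcripts, 29144 were named from RefSeq and 177 from other tables, and 1200 without a name held 0.896% of counts. Isoforms share reads: in 93.5% of 2527 genes with several transcripts the second had at least 50% of the counts of the first. 1 transcript per gene, the most counted on average, was kept, giving 24346 features, 13356 of them tested. edgeR 4.0.16 in R 4.3.3 was used: filterByExpr, TMM, a quasi-likelihood fit, robust option, with 1 mean for each of 4 groups over 12 libraries (residual degrees of freedom 8) and Benjamini-Hochberg adjustment at 0.05 over all genes, two-sided. Changes over 2-fold were tested with glmTreat at a log2 fold of 1. Each SE is the size of the log2 change divided by the square root of the quasi-likelihood F statistic. It is approximate, most of all where a day has almost no reads. CPM uses TMM-scaled library sizes. The scripts were tested on simulated data. A group without reads was set at a floor of 3 counts over the group; with 1 to 3 counts a Clopper-Pearson 95% interval is given, for counting error only. Promoters were matched to 10090 RefSeq promoters, GRCm38.p6.

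Same-numbered libraries were checked for shared deviations and showed no strong ones, but whether they shared a day or batch was not tested. Genes were named by a rule: the 15 largest rises and falls, up to 3 members per list and direction, 10 opposite genes per direction, the 10 highest per kb at each day, and 8 genes always named; Aqp1 and Lpl were chosen after their values were seen, and some genes that the rule names are not reported here. The lists, the rule and the libraries described were chosen with earlier results of these data known. Alternatives were DESeq2 1.42.0, other scalings, no filter on low counts, summed transcripts, the replicate block and leaving out each library.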

Additional observations from a re-analysis of the deposited data

Results flagged for a closer look

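The day effect of 20 genes stood out because it passed the test of the difference between labelled and control cells and was called in opposite directions in the 2 kinds of cell. They are the 10 most positive and the 10 most negative such differences among genes that averaged 10 CPM or more across the 12 libraries, given as log2 differences of the log2 changes, labelled minus control. The positive ones were Sema5a at 4.13, Fxyd1 at 3.50, Ppp1r3d at 3.28, Il4i1b at 2.94 and Ddah1 at 2.93, then Fntb at 2.88, Boc at 2.87, Tenm4 at 2.71, Tmco4 at 2.55 and Atf5 at 2.51. Boc, a co-receptor of hedgehog signalling, had 149, 159.6 and 148 CPM at day 7, against 38.8, 51.4 and 56.7 CPM at day 0 in labelled cells. In control cells Boc had 68.2, 60.8 and 62.1 CPM at day 7, against 147, 153 and 150.1 CPM at day 0.

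The negative ones were Ifi44 at -7.74, Serpina3g at -8.53, Rtp4 at -8.63, Ifit1 at -9.25 and Iigp1 at -9.38, then Oasl2 at -9.42, Cxcl5 at -9.98, Gm4951 at -10.66 and Il1rn at -13.66. The last was a transcript without a gene name in the tables used, at -13.71; it had no read at day 7 in labelled cells, so the fitted value depends on the prior count. Ifi44, Rtp4, Ifit1, Iigp1 and Oasl2 belong to the interferon list. Serpina3g, a protease inhibitor with near-identical neighbours and so uncertain counts, had 3.31, 2.22 and 4.45 CPM at day 7, against 201, 129 and 136 CPM at day 0 in labelled cells, and 198, 183 and 171 CPM at day 7, against 21.6, 26.2 and 22.1 CPM at day 0 in control cells. Replicate 1 was the highest of the day 0 labelled libraries for each of the negative genes but Cxcl5, where it was the lowest.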

How the results depend on the processing

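Counts of genes changed most with the scaling. With total counts in place of TMM scaling, 3384 genes were higher and 6001 lower, beside 4356 and 4969; the median of all genes was then -0.31, against -0.07 with TMM and -0.05 with DESeq2's size factors. In that setting the interaction was positive for 1803 genes, against 3186, and negative for 5418, against 3747, and Eef1a1, whose change was not called at 0.07, stood at -0.17 (adjusted p = 0.235). The DESeq2 Wald test gave 4536 higher and 4956 lower, and a fit of the 6 labelled libraries alone 3694 and 4243. That fit without day 0 replicate 1, chosen after seeing the data, gave 4749 and 5093. Leaving out 1 library at a time gave 4028 to 4934 higher and 4734 to 5354 lower genes, 1624 to 1996 over 2-fold higher and 2480 to 2722 over 2-fold lower, and an interaction positive for 2848 to 4190 and negative for 3440 to 4556. With the replicate block the counts were 4255 higher and 4796 lower, and 3035 and 3506 for the interaction. Deviations of same-numbered libraries from their group means had correlations of -0.25 to 0.11. Differently numbered libraries were not compared, so whether a number marks a shared day or batch was not tested. Over 255 tested genes that are named or could have been, 5098 alternative values were computed: 5047 stayed on their side of the threshold with the same sign, 46 no longer passed, 4 newly passed, all for Nrf1, and 1 changed sign, the value given for Eef1a1. For genes over 2-fold higher and lower, the share with a day 7 LSD1 peak was 76.9 and 49.0% with peaks scored 100 or more and 83.7 and 61.7% within 5 kb; with a day 0 peak it was 49.4 and 39.9%, and 64.3 and 56.3%. Counts near 0 at 1 day limit the size of the largest changes, and the spread of the day 0 group is set in large part by replicate 1. Counting intervals cover counting error only.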

Other observations

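Imprinted growth genes and lysosomal genes had no common direction in LSD1-labelled cells. Of 12 imprinted genes tested, 4 were higher and 6 lower, beside 32.6% higher and 37.2% lower over all genes tested. Peg10, a gene of retroviral origin, rose by 2.96 on the log2 scale, while Igf2, the growth factor, fell by 1.92 and Igf2r, the receptor that clears it, by 2.20. Igf2 had 9.05, 10.8 and 10.6 CPM at day 7, against 75.1, 21.1 and 19.2 CPM at day 0, and without day 0 replicate 1 its change was -0.99 (adjusted p = 2.04e-07). Of 26 lysosome and autophagy genes 11 were higher and 7 lower. The hydrolase gene Gaa fell by 1.77 on the log2 scale. Tfeb, the factor that drives lysosomal genes, rose by 1.84, and Gabarapl1, an autophagosome protein, by 1.39 on the same scale. Tfeb had 31.4, 37.5 and 44.5 CPM at day 7, against 19.6, 5.55 and 6.61 CPM at day 0, and without day 0 replicate 1 its change was 2.64 (adjusted p = 6.11e-12).

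In serine, glycine and one-carbon metabolism 5 of 16 genes were higher and 7 lower, beside 32.6% and 37.2% of all genes tested. Aldh1l1, which oxidises formyl-tetrahydrofolate, rose by 6.94, the glutamine transporter gene Slc1a5 by 2.50 and the mitochondrial folate enzyme gene Mthfd2 by 1.77 on the log2 scale. Without day 0 replicate 1 the change of Aldh1l1 was 8.11 (adjusted p = 9.3e-12). Gldc, of the glycine cleavage system, fell by 1.66 on the log2 scale.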
